A study of Mus musculus with 30 samples.

Results

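Rapamycin treatment was compared with control in the heart of 25-month-old mice, the old end of a series that measured heart, brain and kidney of the same 10 animals, matched by the mouse identifier in the labels. The members were the heart arrays labelled as 25 months old, grouped by the source label: 4 from rapamycin-treated mice and 2 from controls, 6 of the 30 arrays in all. All were male wild-type C57BL/6JRj mice, assigned at random to rapamycin or vehicle at 13 months of age and treated for over 12 months before analysis, and no dose is given in the sources used here. Another 4 heart arrays, from 25-week controls, entered the same model for the estimate of spread and are given beside the results. The sample titles mark the 25-month controls with a letter that could be read as young, so the age of those 2 animals rests on the source label.

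Rapamycin binds the small immunophilin FKBP12, and the complex inhibits the kinase mTOR, above all in mTOR complex 1. That complex drives ribosome production, translation and lipid synthesis when amino acids, insulin and energy are plentiful, and it holds back autophagy and lysosome production. In the ageing mouse heart, the processes studied under rapamycin include hypertrophy, stiffening, inflammation and the choice between fatty acids and glucose as fuel.

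The arrays were Illumina BeadChips, and all values below are log2 signals after background correction and quantile normalization, on which 1 unit is a 2-fold difference. Of 25697 probes, 13773 passed the detection filter and were tested, covering 9565 genes; each gene is described by its brightest probe. The arrays of the 25-month mice detected 12270 to 12686 probes each, and no 2 arrays were identical. The tissue label was checked: 7 of 7 cardiomyocyte markers on the array were detected in every 25-month heart, with a summed level of 16.46 to 16.57 in rapamycin hearts and 16.48 to 16.56 in control hearts. That sum is led by the brightest probes, which quantile normalization holds nearly level: Myl2 was at 14.56 on every 25-month array. Its likeness between the groups therefore does not measure cardiomyocyte content. For the age label, 3 of 7 genes known to be higher in old mouse heart passed the test between the 25-month and 25-week controls. In that test 86 probes (0.624%) passed in all, 73 higher (0.53%) and 13 lower (0.0944%) at 25 months. The genes that passed include C4b and Ccl8, higher at 25 months by 1.95 and 3.7. Because the list was chosen with earlier results of these data known, it is not an independent check of the age label.

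Some arrays stood apart within their own group. Rapamycin mice 1 and 3 lay at -35.6 and -26.9 on the first principal component of the heart arrays, which carried 34.5% of the variance, while the other 8 arrays lay between -1.6 and 14.1. Mice 1 and 3 had a correlation of 0.991 with each other across probes, and mice 2 and 4 one of 0.9943, against 0.9765 to 0.9832 between the pairs. One of the 2 old controls, control 1, lay apart on the second component (18.7% of the variance), at -29.5. The differences of most genes, the list medians and the total number of calls were therefore also computed without mice 1 and 3, and against each control alone. Counts of genes within a list, summed marker levels and the differences of dimmer probes were not recomputed in these ways. On the third component (14.4% of the variance), 25-week control 2 lay at 28.5 and the other arrays between -10.2 and 5.2. That array had the T cell gene Cd3g at 8.74 (4.61 to 6.03 elsewhere) and the lung gene Scgb1a1 at 6.81 (4.28 to 4.45). Rapamycin mouse 2 had the kidney gene Slc34a1 at 6.33, against 4.49 to 4.85 in the other rapamycin hearts. The lung gene Sftpc and the kidney gene Umod were detected on no array. Other tissue in these samples was not tested.

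**Figure D1:**
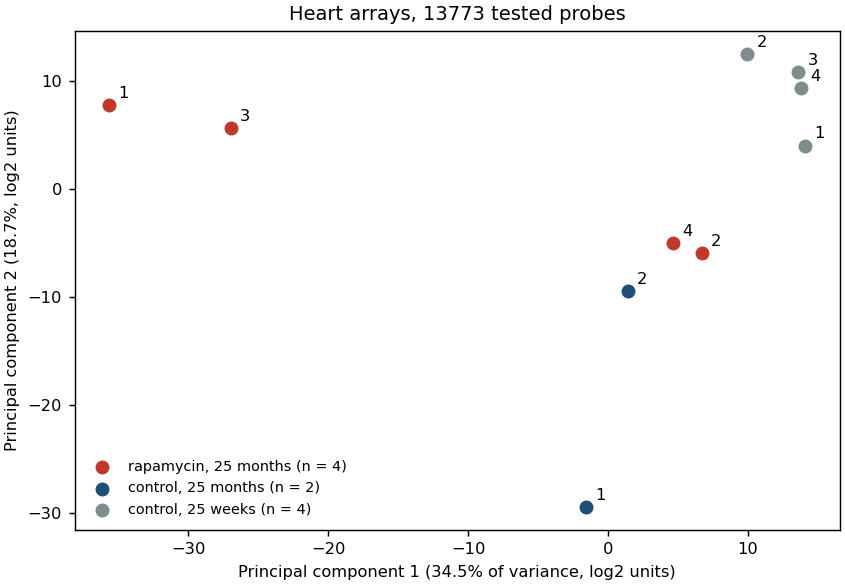
Position of the 10 heart arrays on the first principal component (x axis, 34.5% of the variance) and the second (y axis, 18.7%) of log2 signal over 13773 tested probes, 1 point per mouse, numbered within its group. Rapamycin mice 1 and 3 sit at the far left, rapamycin mice 2 and 4 lie near 25-month control 2, and 25-month control 1 sits alone at the bottom.

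No probe differed between rapamycin and 25-month control hearts at an adjusted p under 0.05 (limma over the 10 heart arrays, Benjamini-Hochberg adjustment). The count was 0 of 13773, or 0%, and the smallest adjusted p was 0.1405. At an unadjusted p under 0.05 there were 1598 probes, 11.6% of those tested, of which 873 were higher under rapamycin (6.34%) and 725 lower (5.26%). Every list count below at that threshold is to be read beside these shares, and no list was tested against them. The 4 rapamycin values all lay above both control values for 1413 probes (10.3%) and all below for 1309 (9.5%). The median log2 difference over genes was -0.01, and the median standard error was 0.15. The single lowest p belonged to a probe for Hdlbp, which encodes the RNA-binding protein vigilin, at -1.12 ± 0.15 (log2 ± SE). The brighter Hdlbp probe gave 0.01, so its probes disagree.

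**Figure D2:**
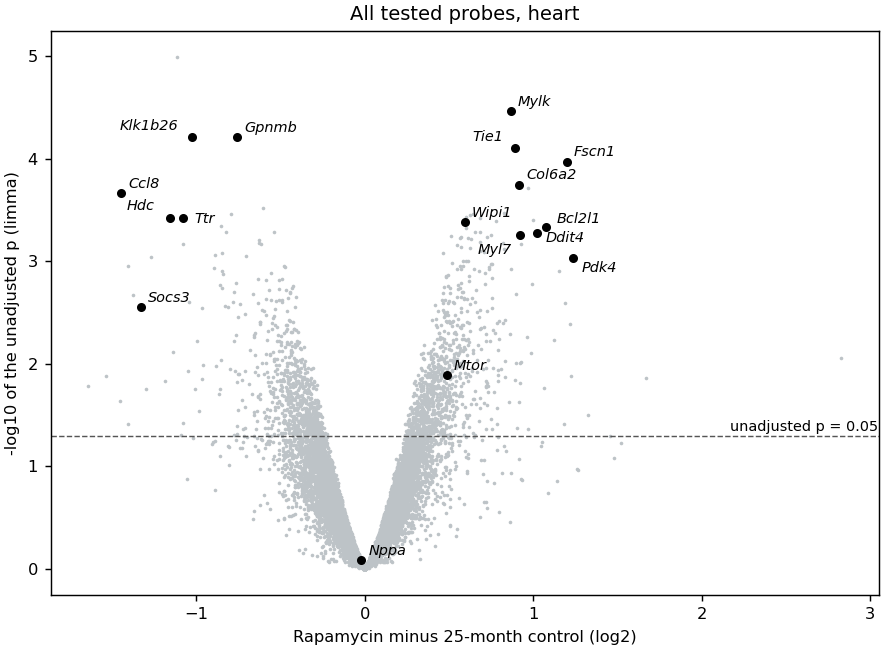
Each point is 1 of 13773 probes, placed by the difference of rapamycin (n = 4) minus 25-month control (n = 2) hearts in log2 units (x axis) and by -log10 of the unadjusted p from limma (y axis). The dashed line marks 0.05. None passed an adjusted p of 0.05; the labelled genes include Mylk and Fscn1 on the higher side, Klk1b26 and Ccl8 on the lower side, and Nppa near 0.

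In the mTOR pathway itself, no tested transcript of the kinase complexes passed an adjusted p of 0.05. Mtor, the kinase that rapamycin inhibits, had 8.58, 7.93, 8.30 and 7.99 in rapamycin hearts against 7.64 and 7.79 in control hearts, a difference of 0.49 ± 0.17 (adjusted p = 0.336). The groups did not overlap, but mice 1 and 3 held the highest values, and without them the difference was 0.25. Rictor, the defining subunit of complex 2, differed by -0.16 ± 0.14, and Fkbp1a, which encodes FKBP12, by 0.05 ± 0.12. Rptor, the defining subunit of complex 1, was not detected on enough arrays to be tested. Deptor, an inhibitor bound to both complexes, was at 0.52 ± 0.19, or 0.22 without mice 1 and 3, and its other probe gave -0.05. Of 12 tested members of the complexes and rapamycin-binding FKBPs, 3 were higher at an unadjusted p under 0.05 and none lower, with a median of 0.12.

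Among the regulators of the pathway, Ddit4 stood out by its p. Ddit4 (REDD1) is a stress- and glucocorticoid-induced protein that restrains mTOR complex 1. It had 9.90, 9.80, 9.83 and 9.70 in rapamycin hearts against 8.46 and 9.11 in 25-month control hearts, with a mean of 9.16 in 25-week controls. Every rapamycin value lay above both old controls, for a difference of 1.02 ± 0.22 (adjusted p = 0.213). Its size without mice 1 and 3 was 0.98, and it was 0.69 without control 1 and 1.35 without control 2. Lpin1, a phosphatidate phosphatase that mTOR complex 1 keeps out of the nucleus, was at 0.45 ± 0.13. Over the 32 regulators and effectors tested, 5 were higher and 1 lower at an unadjusted p under 0.05, and the median of -0.04 was close to that of all genes.

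Transcripts of processes that mTOR complex 1 governs are given list by list. Beside their counts, 6.34% of all tested probes were higher and 5.26% lower at an unadjusted p under 0.05. The 52 cytosolic ribosomal protein genes had a median difference of 0.07, with 1 higher (Rps26, 0.30 ± 0.12) and 1 lower (Rpl7a, -0.57 ± 0.20) at an unadjusted p under 0.05. The 32 genes of the autophagy machinery had a median of -0.01, with 6 higher and none lower at an unadjusted p under 0.05. The first of these was Wipi1, which binds phosphatidylinositol 3-phosphate on forming autophagosomes: it had 9.55, 9.32, 9.53 and 9.34 in rapamycin hearts against 8.86 and 8.83 in control hearts. Its difference was 0.59 ± 0.12 (adjusted p = 0.213), but 3 Wipi1 probes ranged between -0.17 and 0.59. Wipi2, a close relative, was at 0.38 ± 0.13, and its other probes gave -0.12 and 0.44. Among 32 lysosomal genes 1 was higher and 5 lower, with a median of -0.08; Neu1, the lysosomal sialidase, was at -0.33 ± 0.13. Translation factors (25 tested, median -0.06) had no member at an unadjusted p under 0.05. In cholesterol synthesis, Srebf2, its master transcription factor, was at 0.41 ± 0.14 and Hsd17b7, an enzyme late in the pathway, at -0.34 ± 0.13, while the 15 genes tested had a median of -0.04. The 16 genes of fatty acid synthesis had a median of 0.24, with 13 above 0 and 1 higher at an unadjusted p under 0.05, Dgat2, which makes triglyceride, at 0.50 ± 0.19. That median was 0.31 against control 1 alone and 0.12 against control 2 alone.

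Among the higher genes the smallest p-values were those of Mylk, Tie1 and Fscn1. Mylk, the myosin light chain kinase that starts smooth muscle contraction, had 8.80, 8.37, 8.84 and 8.70 in rapamycin hearts against 7.76 and 7.85 in 25-month control hearts, with a mean of 8.24 in 25-week controls. Tie1, an endothelial receptor tyrosine kinase of the angiopoietin system, had 7.99, 7.80, 8.25 and 7.67 in rapamycin hearts against 6.98 and 7.09 in control hearts. Fscn1, the actin-bundling protein fascin, had 8.65, 7.72, 8.22 and 7.96 in rapamycin hearts against 6.93 and 6.95 in control hearts. In each of these 3 genes both old controls lay close together and below every rapamycin heart. The differences were 0.87 ± 0.14 for Mylk, 0.89 ± 0.15 for Tie1 and 1.20 ± 0.21 for Fscn1, each with an adjusted p of 0.213. Without mice 1 and 3 they were 0.73, 0.71 and 0.91. When rapamycin mouse 2 was left out instead, Mylk was the 1 probe that passed, with an adjusted p of 0.0396.

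Of the 16 smooth muscle and pericyte genes tested, 6 were higher and 1 lower at an unadjusted p under 0.05 (median 0.17), and Notch3, the pericyte Notch receptor, was at 0.87 ± 0.21. Its values followed the split within the group, with 8.45 and 8.17 in rapamycin mice 1 and 3, 7.54 and 7.81 in mice 2 and 4, and 7.16 and 7.09 in the controls. The summed level of the defining smooth muscle and pericyte markers was 9.514 to 9.863 in rapamycin hearts and 9.47 to 9.52 in control hearts, which overlap. Of these markers Rgs5 was at -0.17, with every rapamycin heart below both controls. Myh11 was at 0.59, Tagln at 0.20 and Pdgfrb at 0.30. Among 26 endothelial genes 6 were higher and none lower, with a median of 0.14. Rgcc, a cell cycle regulator induced in endothelium, was at 0.68 ± 0.15. The summed level of the defining endothelial markers was 10.18 to 10.72 in rapamycin hearts and 9.753 to 9.877 in control hearts, with Pecam1 at 0.53 and Cdh5 at 0.68. Tie1 is itself one of the 4 markers in that sum, of which 3 were tested and Kdr was not. The part of endothelial cell number in the Tie1 difference was not tested. In whole heart tissue, more cells of a type and more RNA per cell cannot be told apart. The endothelial median was also 0.00 against control 1 alone and 0.28 against control 2 alone.

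Extracellular matrix genes had a median of 0.17 over 38 tested, with 11 higher and 1 lower at an unadjusted p under 0.05. The median was 0.09 against control 1 alone and 0.07 without rapamycin mouse 4. Col6a2, a chain of the pericellular collagen VI, had 7.53, 7.29, 7.21 and 7.45 in rapamycin hearts against 6.11 and 6.79 in 25-month control hearts, with a mean of 7.23 in 25-week controls. Its difference was 0.92 ± 0.17, and 0.57 without control 1. Col6a1, the partner chain, was at 0.62 ± 0.14, and its second probe at 0.19. Col1a1, the main fibrillar collagen chain, was at 0.70 ± 0.23. It had 7.99, 7.35, 7.23 and 7.76 in rapamycin hearts against 6.57 and 7.19 in controls, so that rapamycin mouse 3 and control 2 were nearly level. Col3a1, another fibrillar collagen chain, went the other way, at -0.07 ± 0.25. Its second probe was at -0.32 ± 0.18, with every rapamycin heart below both controls. The 20 fibroblast genes tested had a median of 0.15, with 2 higher and 1 lower, and a median of 0.07 against control 1 alone. The summed level of the defining fibroblast markers was 12.6 to 13.06 in rapamycin hearts and 12.83 to 13.09 in control hearts, which overlap. Of those markers Dcn was at -0.16 and the other 3, which include Col1a1, were above 0.

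Atrial genes formed the list with the highest median, 0.41 over 13 tested genes, of which 7 were higher and none lower at an unadjusted p under 0.05. Myl7, the atrial regulatory light chain, had 12.00, 12.15, 12.56 and 11.97 in rapamycin hearts against 10.94 and 11.56 in 25-month control hearts, a difference of 0.92 ± 0.20 (adjusted p = 0.213). Sln, sarcolipin, which inhibits the calcium pump in atrial muscle, had 12.59, 12.51, 13.25 and 12.55 in rapamycin hearts against 11.63 and 12.29 in controls, a difference of 0.76 ± 0.22. Both genes were highest in rapamycin mouse 3, and neither group overlapped the other. The list's median was 0.51 against control 1 alone and 0.37 against control 2 alone. The summed level of the defining atrial markers, which include Myl7 and Sln, was 15.39 to 15.72 in rapamycin hearts and 15.15 to 15.37 in control hearts, and the part of the amount of atrium in each sample was not tested. Nppa, near the top of the quantile-normalized scale, is also in that sum and had little room to differ.

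The cardiac stress genes as a list had a median of 0.00 over 20 tested, with none at an unadjusted p under 0.05. Nppa, atrial natriuretic peptide, had 14.36, 14.40, 14.37 and 14.35 in rapamycin hearts against 14.36 and 14.43 in control hearts, a difference of -0.02 ± 0.10. Quantile normalization gives the same value to the same rank on every array, which leaves the brightest probes little room to differ; with median scaling in its place Nppa was at 0.05. Nppb, brain natriuretic peptide, was at -0.12 ± 0.29, and Myh6, the fast myosin heavy chain, at 0.00 ± 0.11 by its brightest probe, which has the same limit as Nppa. The dimmer Myh6 probe had 11.85, 12.01, 12.17 and 11.86 in rapamycin hearts against 11.27 and 11.20 in control hearts, groups that did not overlap. Its difference was 0.73 ± 0.17 (adjusted p = 0.222). Myh7, the slow fetal myosin heavy chain, had 8.56, 7.59, 8.26 and 8.38 in rapamycin hearts against 9.12 and 7.65 in 25-month control hearts and a mean of 6.49 in 25-week controls. Its rapamycin difference was -0.19 ± 0.36, while 25-month controls exceeded 25-week controls by 1.90 (adjusted p = 0.0375, limma). Acta1, skeletal actin, varied most, with 9.22, 11.24, 8.85 and 11.98 in rapamycin hearts, low in mice 1 and 3, against 10.14 and 10.88 in controls. Of 20 sarcomere genes 3 were higher and 1 lower (median 0.06), led by Myom1, the M-band protein myomesin, at 0.55 ± 0.13.

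**Figure D3:**
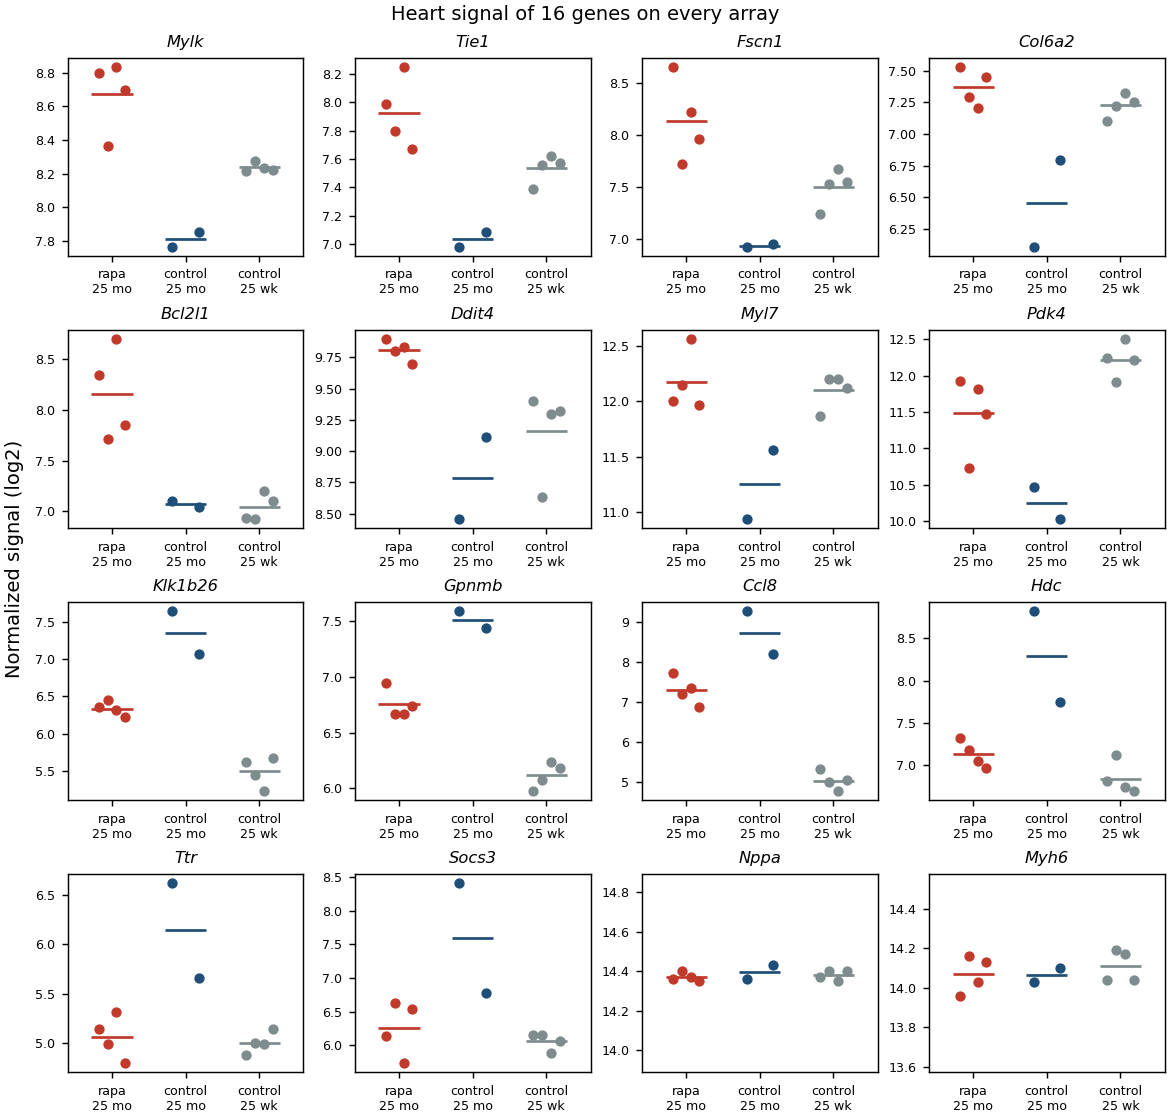
Log2 normalized signal (y axis, its own range in each panel) of 16 genes on every heart array, with 25-month rapamycin (n = 4), 25-month control (n = 2) and 25-week control (n = 4) mice from left to right, points for mice and lines for group means. Mylk, Tie1 and Fscn1 show both 25-month controls below all 4 rapamycin mice, Ccl8 and Hdc show 25-month control 1 far above control 2, and Nppa and Myh6, near the top of the quantile-normalized scale, show little spread in any group.

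Among metabolic genes, targets of the fatty-acid-sensing PPAR receptors had a median of 0.17 over 22 tested, with 7 higher and 2 lower at an unadjusted p under 0.05. Pdk4, the kinase that shuts pyruvate dehydrogenase and so favours fat over glucose, had 11.92, 10.73, 11.82 and 11.47 in rapamycin hearts. Its values were 10.47 and 10.03 in 25-month controls, and its mean was 12.22 in 25-week controls. The rapamycin difference was 1.23 ± 0.28 (adjusted p = 0.222), and the 25-month minus 25-week control difference was -1.97 (adjusted p = 0.00877, limma). Angptl4, a secreted inhibitor of lipoprotein lipase, had 8.25, 7.23, 7.62 and 8.08 in rapamycin hearts, 6.86 and 6.36 in 25-month controls and a mean of 9.25 in 25-week controls. Its difference was 1.19 ± 0.31 between rapamycin and 25-month control (adjusted p = 0.244) and -2.64 between 25-month and 25-week control (adjusted p = 0.00291). For both genes all rapamycin hearts lay above both 25-month controls, and the 2 contrasts share the 25-month controls, so their opposite signs are not independent.

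The enzymes of fuel oxidation as groups stayed close to the median of all genes. The 65 oxidative phosphorylation genes had a median of 0.00, with 2 higher and 1 lower at an unadjusted p under 0.05. The 31 genes of fatty acid oxidation and the citric acid cycle had a median of -0.01, with 2 higher: Cpt2, the inner membrane carnitine palmitoyltransferase, at 0.31 ± 0.12, and Ogdh, a subunit of oxoglutarate dehydrogenase, at 0.46 ± 0.14, or 0.24 without control 1. Of 23 genes of glycolysis and glucose use, 2 were higher and 2 lower, and Pkm, pyruvate kinase, was at 0.55 ± 0.14. Over all tested probes 6.34% were higher and 5.26% lower at the same threshold.

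Adipocyte genes had a median of 0.35 over 18 tested, with 5 higher and none lower at an unadjusted p under 0.05. Cidea, a lipid droplet protein of brown fat that is also made in heart muscle, had 9.97, 9.72, 9.53 and 9.70 in rapamycin hearts against 8.77 and 8.97 in control hearts, a difference of 0.86 ± 0.25 (adjusted p = 0.288). Gpd1, glycerol-3-phosphate dehydrogenase, was at 0.73 ± 0.20. Ucp1, the uncoupling protein that defines brown fat, had 7.97, 7.89, 6.11 and 7.72 in rapamycin hearts, and was not detected in either control. Its bound was at least 6.22-fold higher under rapamycin. Its log2 difference of 2.83 ± 0.90 did not pass (adjusted p = 0.329, limma). The 25-week controls ranged between 5.12 and 9.27 for Ucp1. The summed level of the defining adipocyte markers, which include Ucp1, was 7.72 to 9.381 in rapamycin hearts and 6.953 to 8.139 in control hearts, with Plin1 not detected on any array, and the part of attached fat in these values was not tested.

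Of 18 glucocorticoid-response genes, 7 were higher and 1 lower at an unadjusted p under 0.05 (median 0.23). The higher ones include Ddit4 and Angptl4, already counted in the mTOR regulator and PPAR lists above. The list's median was 0.13 against control 1 alone and 0.38 against control 2 alone. Per1, a clock repressor that glucocorticoids also induce, had 9.45, 8.84, 9.57 and 8.84 in rapamycin hearts against 8.51 and 8.40 in control hearts, a difference of 0.72 ± 0.26, and 0.39 without mice 1 and 3. Tsc22d3 (GILZ), a direct glucocorticoid target, was at 0.45 ± 0.15. Nfkbia, the inhibitor of NF-kappaB, had 8.67, 8.64, 8.98 and 8.51 in rapamycin hearts against 7.89 and 8.15 in controls, a difference of 0.68 ± 0.14 (adjusted p = 0.213). Cdkn1a, the cell cycle inhibitor p21, was at 0.47 ± 0.17. Bcl2l1, the survival protein Bcl-xL, was at 1.07 ± 0.23 and, with 8.34 and 8.69 in mice 1 and 3 but 7.72 and 7.85 in mice 2 and 4, at 0.71 without mice 1 and 3. Its other probes gave 0.72, with groups that overlapped, and 0.58, with groups that did not. The 17 clock genes had 4 members higher and none lower, with a median of -0.04.

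Among the lower genes, by their brightest probe, the smallest p-values were those of Klk1b26 and Gpnmb. Klk1b26, a kallikrein-related serine protease, had 6.36, 6.45, 6.32 and 6.22 in rapamycin hearts against 7.65 and 7.07 in 25-month control hearts, with a mean of 5.49 in 25-week controls. Its difference was -1.02 ± 0.17 (adjusted p = 0.213), and -0.73 without control 1. The kallikrein genes are near-identical copies, and the array's probes may not tell Klk1b26 and Egfbp2 apart. Egfbp2 was detected in both 25-month control hearts and in no rapamycin or 25-week heart. It thus passed the detection filter through those controls alone, which fixed its direction in advance. The bound of at least 1.40-fold higher in control hearts is therefore no support for a difference. Gpnmb, a transmembrane glycoprotein of lipid-laden macrophages, had 6.95, 6.67, 6.67 and 6.74 in rapamycin hearts against 7.59 and 7.44 in 25-month controls, with a mean of 6.12 in 25-week controls. Here the controls lay close together, and the difference was -0.76 ± 0.13, or -0.68 without control 1.

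Ccl8, a monocyte-attracting chemokine, had 7.72, 7.18, 7.35 and 6.88 in rapamycin hearts against 9.27 and 8.19 in 25-month control hearts, with a mean of 5.03 in 25-week controls. The rapamycin difference was -1.45 ± 0.28 (adjusted p = 0.213). It was -0.91 without control 1 and -1.98 without control 2. Rapamycin hearts were above 25-week controls by 2.26. Among 27 chemokines, cytokines and alarmins 6 were lower and 1 higher at an unadjusted p under 0.05 (median -0.13). The lower ones included Ccl7, a related chemokine, at -1.04 ± 0.27, and Il1b, the inflammasome cytokine, at -0.996 ± 0.300. For Il1b the groups overlapped, and the difference was -0.36 without control 1 and -1.64 without control 2. The list's median was -0.30 against control 1 alone and -0.04 against control 2 alone. Il33, an alarmin of stromal cells, was at 0.00 ± 0.19.

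Neutrophil genes had the lowest median of any list, -1.04 over 8 tested, with 6 lower and none higher at an unadjusted p under 0.05, and the value rested on 1 control. Those lower include Chil3, which was detected only in the 25-month controls, so the detection filter fixed its direction. S100a8, a calcium-binding protein that fills neutrophil cytosol, had 9.10, 8.56, 8.82 and 7.88 in rapamycin hearts against 11.61 in control 1 and 8.85 in control 2. S100a9, its partner, had 7.33, 7.48, 7.04 and 6.54 in rapamycin hearts against 9.90 in control 1 and 7.37 in control 2. For both genes control 2 lay inside the range of the rapamycin hearts and control 1 far above it. The list's median was -1.66 against control 1 alone and -0.19 against control 2 alone. The summed level of these 2 genes, the only neutrophil markers tested, was 8.359 to 9.468 in rapamycin hearts and 9.293 to 11.99 in control hearts.

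For the other immune groups, too, the size of the difference depended on the control. The shares over all tested probes were 6.34% higher and 5.26% lower at an unadjusted p under 0.05. Of 31 interferon-response genes, 10 were lower and none higher at an unadjusted p under 0.05, with a median of -0.33 and medians of -0.55 against control 1 and -0.07 against control 2. Irf1, an interferon-induced transcription factor, had 9.24, 9.51, 9.21 and 9.27 in rapamycin hearts against 10.50 in control 1 and 9.62 in control 2. Socs3, a feedback inhibitor of cytokine signalling, had 6.14, 6.64, 5.74 and 6.54 in rapamycin hearts against 8.41 in control 1 and 6.78 in control 2. Control 2 was thus just above the highest rapamycin heart for both genes by these probes. The Irf1 difference was -0.75, while its other probes gave -0.32, -0.32 and -0.45, each with groups that overlapped. Eif2ak2, the double-stranded RNA sensor PKR, was lower against both controls, with 7.93, 7.73, 7.78 and 7.71 in rapamycin hearts and 8.61 and 8.22 in control hearts, a difference of -0.62 ± 0.14. MHC class I and immunoproteasome genes (16 tested, 3 lower, median -0.25) were at -0.56 against control 1 and 0.07 against control 2, and complement genes (14 tested, 5 lower, median -0.18) at -0.37 and 0.02.

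Of 30 macrophage genes, 7 were lower and none higher at an unadjusted p under 0.05, with a median of -0.21 and medians of -0.44 against control 1 and 0.07 against control 2. Vsig4, a complement receptor of resident macrophages, had 7.43, 6.94, 7.10 and 7.24 in rapamycin hearts against 8.35 and 7.70 in control hearts, a difference of -0.85 ± 0.19. Ms4a7, a macrophage membrane protein, had 5.57, 6.05, 5.51 and 5.59 in rapamycin hearts against 6.84 and 6.32 in controls, a difference of -0.90 ± 0.21. For these members every rapamycin heart lay below both controls. The summed macrophage markers were at 7.75 to 8.043 in rapamycin hearts and 7.877 to 8.355 in control hearts, which overlap. MHC class II genes ran the other way, with 8 of 8 tested genes above 0, none at an unadjusted p under 0.05 and a median of 0.31. Cd74, the invariant chain, was at 0.60 ± 0.28 and H2-Eb1, a class II beta chain, at 0.50 ± 0.26. That median was 0.08 against control 1 and 0.59 against control 2.

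**Figure D4:**
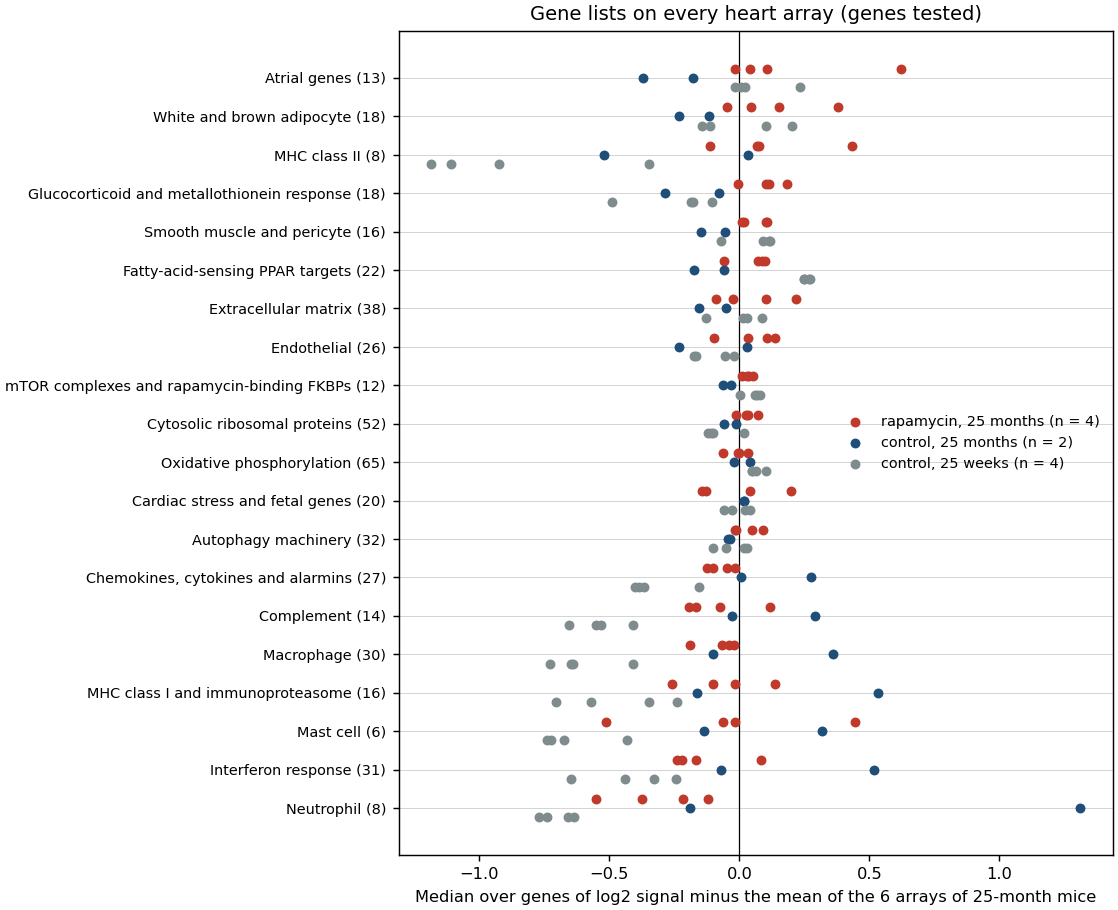
For 20 gene lists (rows, genes tested in brackets), the median over the list's genes of log2 signal minus the gene's mean over the 6 arrays of 25-month mice (x axis), with 1 point per array of rapamycin (red), 25-month control (blue) and 25-week control (grey) mice. In the neutrophil row control 1 is at 1.31, far right of control 2 at -0.19 and of the rapamycin hearts at -0.55 to -0.12, whereas in the atrial row both 25-month controls lie left of all rapamycin hearts.

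Several other secreted and signalling products were also lower under rapamycin. Hdc, histidine decarboxylase, which makes histamine, had 7.32, 7.17, 7.04 and 6.97 in rapamycin hearts against 8.82 and 7.75 in control hearts, a difference of -1.16 ± 0.24, and -0.62 without control 1. It belongs to the mast cell list, of which 2 of 6 were lower and none higher at an unadjusted p under 0.05, with a median of -0.33. That median was 0.04 against control 1 alone and -0.51 against control 2 alone. Bdnf, a neurotrophin, had 7.0, 6.51, 6.57 and 6.46 in rapamycin hearts against 7.46 and 7.40 in controls, a difference of -0.80 ± 0.16. Ttr, the thyroid hormone carrier transthyretin, had 5.14, 4.99, 5.32 and 4.80 in rapamycin hearts against 6.62 and 5.66 in controls. For these 3 genes the groups did not overlap, and control 1 was the higher control. C4b, complement C4, and Kcnk1, a potassium channel, were higher in 25-month than in 25-week controls by 1.95 and 1.89 (adjusted p = 0.00198 and 0.000333, limma), and their rapamycin differences, which share the 25-month controls, were -0.51 ± 0.22 and -0.49 ± 0.16. For C4b the rapamycin and control hearts overlapped, and the difference was -0.17 without control 1 and -0.84 without control 2.

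**Figure D5:**
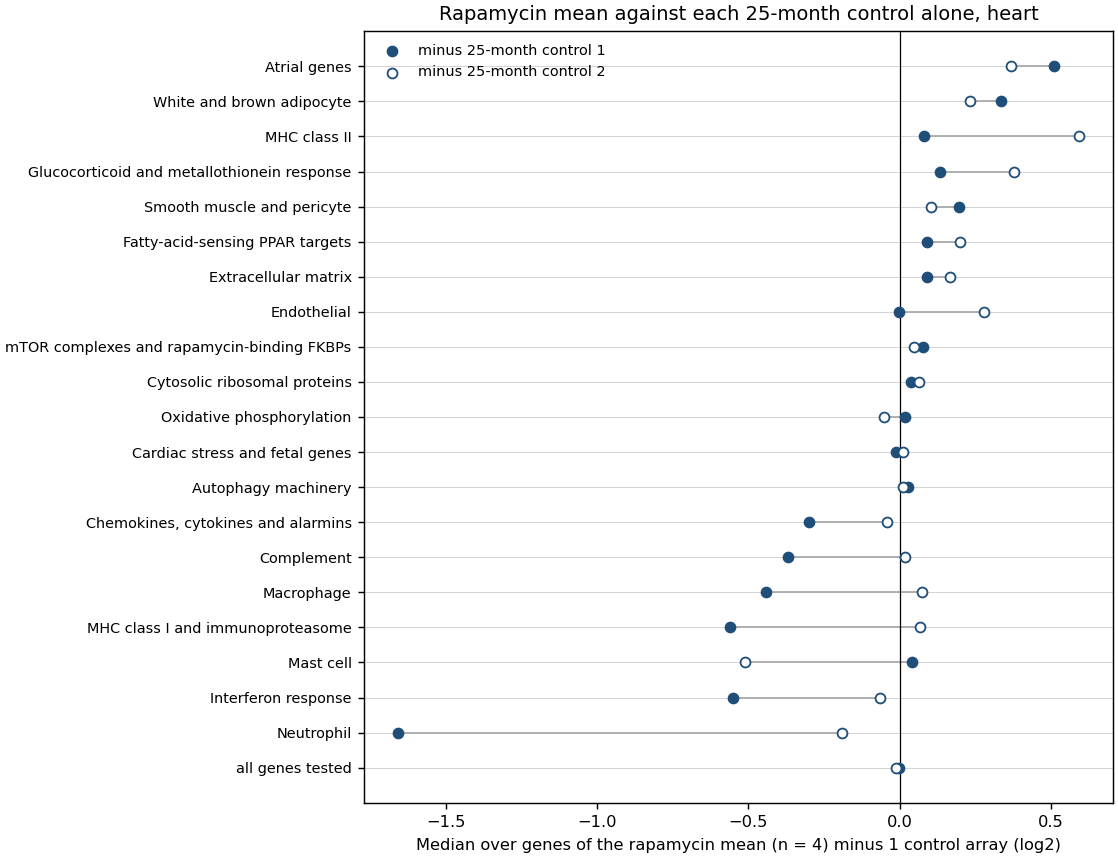
Median over the genes of each list of the rapamycin mean (n = 4) minus 1 control array (x axis, log2), filled circles for 25-month control 1 and open circles for 25-month control 2, joined within a list. The circles lie on the same side of 0 for atrial (0.51 and 0.37) and adipocyte genes (0.33 and 0.23), and on opposite sides for macrophage (-0.44 and 0.07) and complement genes (-0.37 and 0.02).

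The number of calls depended on which arrays set the spread and on the 2 controls. Without control 2, which leaves control 1 as the only 25-month control, 36 probes passed an adjusted p of 0.05, 4 higher and 32 lower, among them Hdc, Socs3, Ccl8 and Klk1b26; without control 1 none passed. A fit over all 30 arrays of heart, brain and kidney, with the mouse as a random effect, called 18 probes in the heart contrast (8 higher, or 0.0581%, and 10 lower, or 0.0726%, 0.131% in all), including Klk1b26, Myl7, Ddit4, Col6a2 and the dimmer Myh6 probe. Without the kidney array of rapamycin mouse 2, which stood apart, the same fit called 341 (206 higher, or 1.5%, and 135 lower, or 0.98%, 2.48% in all), including Tie1 (adjusted p = 0.000851) and Mylk (adjusted p = 0.00390). Such a fit shares 1 spread between tissues, and the median residual standard deviation was 0.192 in heart, 0.125 in brain and 0.149 in kidney without that array, so the heart contrast was judged against a spread smaller than its own. It called 0 probes when control 1 was left out, and 61 to 890 when each of the other mice was left out in turn (61 without rapamycin mouse 3, 890 without rapamycin mouse 2). The 30-array count ran between 0 without control 1 and 890 without rapamycin mouse 2, all of whose tissues were then left out. Both fits were added after the heart data had been seen.

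The rapamycin difference in heart was set against that in the other tissues of the same mice, as a contrast of contrasts in the 30-array fit. That fit kept the kidney array of rapamycin mouse 2 and its larger spread. The contrast of heart and brain was not computed without that array. Between heart and brain, 1 of 13773 probes passed (0.00726%, with 404 or 2.93% at an unadjusted p under 0.05): Klk1b26, at -1.01 in heart and 0.05 in brain, a difference of -1.06 ± 0.18 (adjusted p = 0.048, limma). It did not pass under any of 4 other settings listed in the closing section. Nor did it pass without rapamycin mouse 1, 3 or 4, or without 25-week control 1, 2 or 4. It passed without rapamycin mouse 2, without 25-week control 3 and with each tissue normalized alone. It also passed with a filter of detection p under 0.01 on 4 arrays, and with a robust variance trend. The difference was -0.78 without 25-month control 1 and -1.35 without 25-month control 2. With all tissues of rapamycin mouse 2 left out, 6 probes passed between heart and brain, and 1298 were at an unadjusted p under 0.05. Between heart and kidney no probe passed (0%, with 1595 or 11.6% at an unadjusted p under 0.05); the smallest adjusted p was 0.122, for Myl7, at 0.83 in heart and -0.19 in kidney, a difference of 1.02 ± 0.19.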

How the data were processed

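Per the labels' protocols, RNA was extracted with Trizol and RNeasy columns, and biotin-labelled cRNA was hybridised to Illumina BeadChips, 1 array per tissue and mouse. The deposited files give an intensity and a detection p-value per probe and array, per the file headers, and GenomeStudio 2011.1 appears in the submitters' processing notes. The series also holds a value table whose normalization is not given in the sources used here; it served as an alternative.

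From the intensities, background was corrected with limma's normexp method (offset 16, negative controls inferred from the detection p-values), followed by quantile normalization and log2. Probes that 2 or more of the 10 heart arrays detected (detection p-value under 0.05) were tested with limma 3.58.1 in R 4.3.3, 1 mean per group, with Benjamini-Hochberg adjustment over 13773 probes at a threshold of 0.05. Figures were drawn with matplotlib 3.10.9 in Python 3.11.15. Of 25697 probes, 23978 had 1 gene symbol in the platform annotation and 1719 none. The fit was tested on simulated data.

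A gene not detected in any array of a group has a bound only: the brighter group's mean against the lowest detected signal, or the gene's own if higher. Named genes are the 12 with the smallest p in each direction, up to 2 members of each of 60 lists, cell type markers and genes fixed by name. The members, lists and named genes were chosen with earlier results of these data known. Replicate numbers did not pair the samples: the correlation of deviations was -0.080 to 0.048 for samples that share a number. P-values reflect the spread between these mice, and precision is limited by the number of arrays, above all the 2 controls. Alternatives were another normalization, other filters, array weights, the 6 arrays alone, a replicate block, each array left out, and, added after seeing the data, mice 1 and 3 left out and fits over 30 or 29 arrays of 3 tissues.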

Additional observations from a re-analysis of the deposited data

Results flagged for a closer look

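Among the named genes, 164 groups of 4 heart arrays were examined for a single array far from the others, and 7 held one; chance alone gives about 1 in 20 groups. In the rapamycin group, mouse 1 was lowest for Rictor at 7.60, for Oasl1 at 4.60 and for Rgcc at 10.13. Rapamycin mouse 4 was lowest for Hsd17b7 at 8.65. Rapamycin mouse 2 was highest for Ms4a7 at 6.05, and rapamycin mouse 3 was highest for Sln at 13.25. Among the 25-week controls, mouse 2 was lowest for Ddit4 at 8.63.

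Klk1b26 had a lower rapamycin difference in heart than in brain, with -1.06 (log2) for heart minus brain by a test of that difference itself. That difference did not pass with median scaling or without rapamycin mouse 1, 3 or 4.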

How the results depend on the processing

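The count of probes past an adjusted p of 0.05 in heart (0) was also 0 with median scaling, the other filters, array weights, the 6 arrays alone and the replicate block. It was 18 in the 30-array fit, 341 in the 29-array fit, and 0 to 36 with each array left out in turn. The count at an unadjusted p under 0.05 (1598) was 613 without control 1, 2135 without rapamycin mouse 2, 979 with the replicate block and 2687 in the 29-array fit. The single call between heart and brain was 0 with median scaling, without the mouse effect, with the replicate block and without mice 1 and 3, and 0 to 6 with each mouse left out. It was also 0 without rapamycin mouse 1, 3 or 4 and without 25-week control 1, 2 or 4. Between heart and kidney the count of 0 became 16 without mice 1 and 3, 10 without the kidney array of rapamycin mouse 2, and 0 to 32 with each mouse left out. Genes near 0 changed sign. Nppa was at 0.048 and Il33 at 0.046 with median scaling, and Il33 at 0.10 with the replicate block. Nppb was at 0.14 and Acta1 at 0.58 with array weights, and at 0.32 and 1.11 without mice 1 and 3. With each array left out, the ranges were -0.74 to 0.30 for Acta1, -0.21 to 0.20 for Il33, -0.033 to 0.043 for Myh6, -0.92 to 0.54 for Myh7, -0.053 to 0.011 for Nppa and -0.32 to 0.069 for Nppb. The cause was not tested.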

Other observations

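Platelet transcripts varied widely among the rapamycin hearts. Ppbp, a platelet chemokine, had 6.43, 7.92, 7.67 and 10.00 in rapamycin hearts against 5.82 and 7.16 in 25-month control hearts, a difference of 1.52 ± 0.73 (log2 ± SE, adjusted p = 0.444, limma). Rapamycin mouse 4 was the highest, and mouse 1 lay between the controls. Itga2b, the platelet integrin alpha IIb, had 5.19, 6.20, 6.32 and 7.59 in rapamycin hearts against 4.95 and 5.60 in controls. The 9 erythroid and platelet genes tested had a median of 0.15, and 0.65 without rapamycin mice 1 and 3.

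Of 27 ribosome biogenesis genes, 3 were higher and 1 lower at an unadjusted p under 0.05 (median -0.01), with Fbl, the rRNA methylase fibrillarin, at 0.29 ± 0.11 and Gnl3, nucleostemin, at -0.35 ± 0.13. The other Gnl3 probe gave -0.03. Across all tested probes the shares at that threshold were 6.34% higher and 5.26% lower. Heat shock proteins and cochaperones had 4 of 24 higher and none lower, with a median of 0.05. The 8 B and plasma cell genes had a median of 0.29, and -0.05 without mice 1 and 3, with medians of 0.55 against control 1 alone and -0.22 against control 2 alone and with no member at an unadjusted p under 0.05.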
